A study of Mus musculus with 50 samples.

Results

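Collagen chain genes were followed in whole p53/MCA sarcomas of the mouse by bulk RNA sequencing. A gene was included when its identifier carried a symbol made of Col, a number, the letter a and a second number. That rule found 44 of 37469 genes, and 43 of them had enough reads to be tested. The exception was Col4a3, which had 0 to 18 reads per library. By the type of assembly their proteins form, the 44 genes comprised 11 fibrillar chains, 8 basement membrane chains, 6 chains of beaded filaments, 9 fibril-associated chains, 3 short-chain network formers, 4 transmembrane chains and 3 chains of anchoring fibrils or of no class. Exons of 10 of these genes overlap an exon on the opposite strand, as the first exons of Col4a1 and Col4a2 do, and exons of 3 overlap one on the same strand, so reads there are uncertain in origin.

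Primary tumors arose in Trp53 fl/fl mice aged 6 to 10 weeks after injection into the gastrocnemius of an adenovirus that expresses Cre recombinase, which deletes Trp53 in the infected cells of that calf muscle, and of 300 µg of the carcinogen 3-methylcholanthrene (MCA). Transplant tumors grew in the same muscle of syngeneic 129/SvJae mice from 50000 cells of a single line, 402230, that had been derived from an untreated primary tumor. The cells were injected in Matrigel, itself an extract of basement membrane. Transplants thus share 1 parental tumor, whereas each primary tumor arose anew. Tumors received 0 or 20 Gy of radiation and 200 µg of an antibody against PD-1 or of an isotype control, and were harvested 3 days later. There were 8 primary and 4 transplant libraries per treatment, 48 in all, and all primary tumors carried the same Trp53 deletion and carcinogen exposure as the parent of the line. Levels are given as CPM, read counts scaled to the depth of each library, and log2 fold changes with their standard error (SE) come from 1 edgeR quasi-likelihood model of the 48 libraries. A chain is called when its p-value, adjusted over all 19327 genes tested, lies under 0.05. Shares of all genes called are given for that model alone. Counts of chains at an unadjusted p under 0.05, by other methods or with libraries left out have no such share beside them. Those counts do not show whether the chains differed more often than other genes. Values of a transplant group are listed in the order of its replicates 1 to 4.

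A collagen molecule is a triple helix of chains, either copies of a single chain or a mixture of related chains from different genes. Fibrillar collagens give connective tissue and the stroma of sarcomas their tensile fibers, type IV collagen forms the sheet under endothelium and around muscle fibers, and type VI collagen forms filaments between cells and the surrounding fibers. Fibroblasts, pericytes, endothelial cells, muscle and mesenchymal tumor cells all make collagen, and whole-tumor RNA does not show which of them did. Fewer cells of a type and less RNA per cell cannot be told apart in such samples.

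Total counts were 31810461 to 54008259 per tumor library. In 4 of the 48 libraries the summed level of the bone genes Ibsp, Bglap, Dmp1 and Sp7 was 39.4 to 706 CPM, against 0.0622 to 11.6 CPM in the others. These 4 were replicate 3, numbered in accession order, of each transplant group. In 3 irradiated primary tumors, replicates 4 and 8 of the 20 Gy anti-PD-1 group and replicate 4 of the 20 Gy isotype group, 9 skeletal muscle genes summed to 24040.4 to 74024 CPM, against at most 19096 CPM elsewhere. Calls over several treatments that were lost without these libraries are given with both values. Trp53, deleted in the tumor cells, was still read at 20.2 to 60.7 CPM with a median of 26.7 in primary tumors and at 25.7 to 45.8 CPM with a median of 40.0 in transplants. Counts per gene include RNA of host cells and do not by themselves show the deletion. The title of each tumor library carries a number of its own, in the form in which the study numbers mice, so libraries were taken to be separate animals.

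Col4a5, Col4a6, Col8a1 and Col15a1 were called lower in transplants than in primary tumors under at least 3 of the 4 treatments, as described later. For that reason the sequence just upstream of each start is shown for these 4 chains. Whether the 4 varied together across tumors was not tested. Sequences are those of RefSeq on GRCm38.p6, written 5′ to 3′ on the strand of the gene, up to 250 bases before the start of transcription. Bases that GENCODE counts as exon were left out, which shortened the window of Col4a5 to 216 bases. Capitals mark matches, on either strand, to TATAAA (the letters of the TATA box), to CCAAT (the CCAAT box), to GGGCGG (the GC box) and to TGANTCA (the AP-1 site).
Col4a5 chrX:141475169-141475384 (+): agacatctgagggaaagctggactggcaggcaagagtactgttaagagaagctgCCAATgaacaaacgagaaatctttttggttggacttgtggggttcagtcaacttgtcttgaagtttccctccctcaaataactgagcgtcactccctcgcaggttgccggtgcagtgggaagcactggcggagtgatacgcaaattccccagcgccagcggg
Col4a6 chrX:141474077-141474326 (-): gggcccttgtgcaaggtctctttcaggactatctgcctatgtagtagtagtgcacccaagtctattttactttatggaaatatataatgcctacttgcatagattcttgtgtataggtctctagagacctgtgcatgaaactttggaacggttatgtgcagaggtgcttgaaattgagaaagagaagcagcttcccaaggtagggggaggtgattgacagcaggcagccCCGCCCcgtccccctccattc
Col8a1 chr16:57754738-57754987 (-): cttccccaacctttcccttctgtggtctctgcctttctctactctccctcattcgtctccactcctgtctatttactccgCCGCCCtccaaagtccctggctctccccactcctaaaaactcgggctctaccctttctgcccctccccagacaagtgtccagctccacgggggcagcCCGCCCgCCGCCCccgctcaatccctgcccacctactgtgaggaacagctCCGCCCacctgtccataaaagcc
Col15a1 chr4:47207762-47208011 (+): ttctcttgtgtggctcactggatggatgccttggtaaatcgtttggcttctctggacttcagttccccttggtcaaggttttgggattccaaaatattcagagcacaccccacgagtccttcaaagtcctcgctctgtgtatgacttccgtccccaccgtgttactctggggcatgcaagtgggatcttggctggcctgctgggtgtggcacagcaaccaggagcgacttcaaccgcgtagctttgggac

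The Col8a1 window held 4 GC boxes, that of Col4a6 held 1, that of Col4a5 held 1 CCAAT box and that of Col15a1 held none of the 4 motifs. Among the 35 chain genes with a RefSeq window, 60% (21 genes) had a GC box and 34.3% (12 genes) a CCAAT box, against 32.9% and 34.5% of 27025 promoters. TATAAA was present in 14.3% of the chain promoters and in 13.0% of all promoters, and TGANTCA in 2.86% and 6.87%. Among the 17 chain promoters of genes that were lower in transplants, 10 (58.8%) held a GC box. A match describes the letters in the window and shows no binding. Col4a5 and Col4a6 lie head to head on chromosome X with starts 1309 bases apart in GENCODE, Col4a3 and Col4a4 lie head to head 72 bases apart on chromosome 1, and the first exons of Col4a1 and Col4a2 on chromosome 8 overlap.

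Few chains made up nearly all collagen RNA. Per kilobase of exon, the scale on which genes can be compared, type I collagen led with Col1a1 at 659 CPM per kb on average over the 48 tumors and Col1a2 at 315, and Col3a1, the single chain of type III collagen, stood at 635. Next came the type VI chain Col6a1 at 207 and the type IV chains Col4a1 at 168 and Col4a2 at 123.9 CPM per kb. Col5a2 (100.7), Col6a2 (96.1), Col5a1 (81.6), Col6a3 (67.2), Col18a1 (40.3) and Col16a1 (38.0) completed the first 12. The order depends on the length used, as shown for type I chains further on. Together the 12 held 95.3% of collagen RNA per kb, with 91.8% to 97.7% in single libraries. Seen over both models, the other chains ranged down from Col5a3 at 25.5 to Col4a3 at 0.00977 CPM per kb, and Col2a1, the main chain of cartilage fibrils, averaged 1.08.

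Fibrillar chains held 67.6% ± 6.54 of collagen RNA per kb in primary tumors (SD, n = 32) and 68.9% ± 6.33 in transplants (n = 16). For basement membrane chains the shares were 14.1% ± 3.88 and 14.3% ± 4.31, and for beaded filaments 14.8% ± 4.12 and 12.2% ± 3.52. Fibril-associated chains held 2.03% ± 0.564 and 3.20% ± 0.607, and transmembrane chains 0.107% ± 0.0803 and 0.293% ± 0.221. Short-chain network formers held 1.19% ± 0.589 and 0.673% ± 0.366, and anchoring and unclassed chains 0.128% ± 0.125 and 0.418% ± 0.316. Of the 7 families, the share of the fibril-associated chains differed between models by more than the SD of both. As a share of all counts these chains took 0.0436% ± 0.0178 and 0.0481% ± 0.0169, which differ by less than the SD. All chains together took 2.60% ± 1.49 of counts in primary tumors, with 0.999% to 8.15% in single libraries, and 1.45% ± 0.619 in transplants, with 0.545% to 2.93%. The highest library was replicate 8 of the primary 20 Gy anti-PD-1 group, which is also among the 3 with high muscle RNA.

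**Figure D1:**
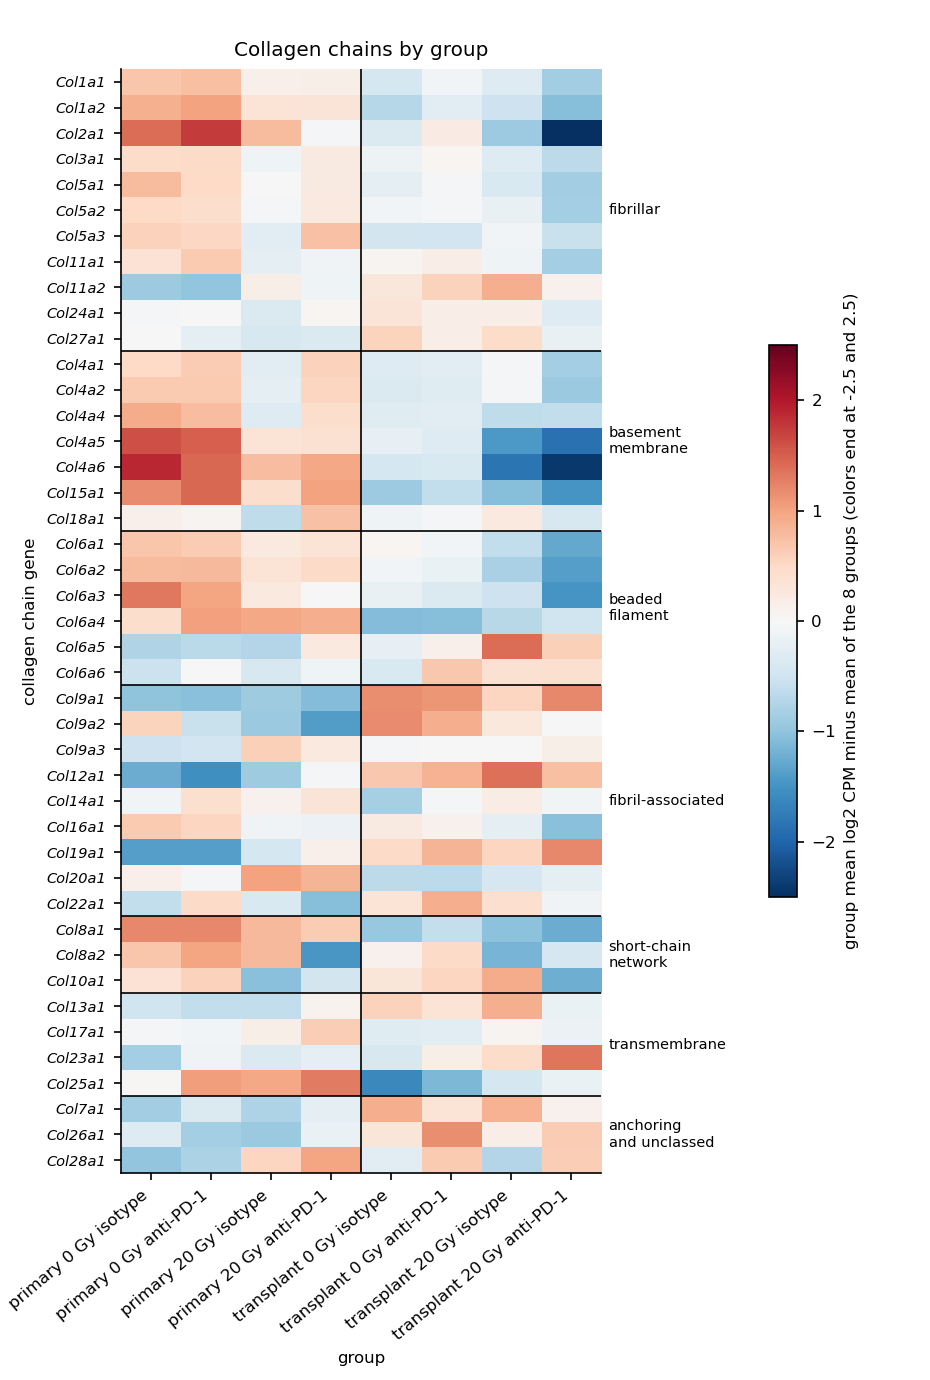
Heat map of the 43 tested collagen chains (y axis, by family) in the 8 groups (x axis). Color gives the group mean of log2 CPM minus the mean of the 8 groups, red higher and blue lower, with colors ending at -2.5 and 2.5. Col4a5, Col4a6, Col15a1 and Col8a1 are red in each primary group and blue in each transplant group, while Col9a1 and Col12a1 are red in the transplants and, apart from a nearly white Col12a1 cell at 20 Gy with anti-PD-1, blue in the primary tumors.

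Transplants were compared with primary tumors over the mean of the 4 treatments, with 16 against 32 libraries. Of 43 chains, 19 were lower in transplants and 5 were higher. Over all genes tested, 19.1% were lower and 15.7% higher (34.8% called in all), and the median log2 fold change was -0.0025 over all genes and -0.53 over the chains. The lower chains were 6 of 7 basement membrane chains, 6 of 11 fibrillar chains, 4 of 6 beaded filament chains and 1 each of the fibril-associated, short-chain network and transmembrane chains. The higher ones were 3 of 9 fibril-associated chains, 1 fibrillar and 1 transmembrane chain. Without the 4 libraries high in bone genes, 20 chains were lower and 1 was higher, and without the 3 libraries high in muscle genes 18 were lower and 8 higher. Leaving out each transplant library in turn gave 22 to 26 called chains. The models differ in the source and number of parent tumors, in the injected carrier and in the mice, and these cannot be told apart.

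**Figure D2:**
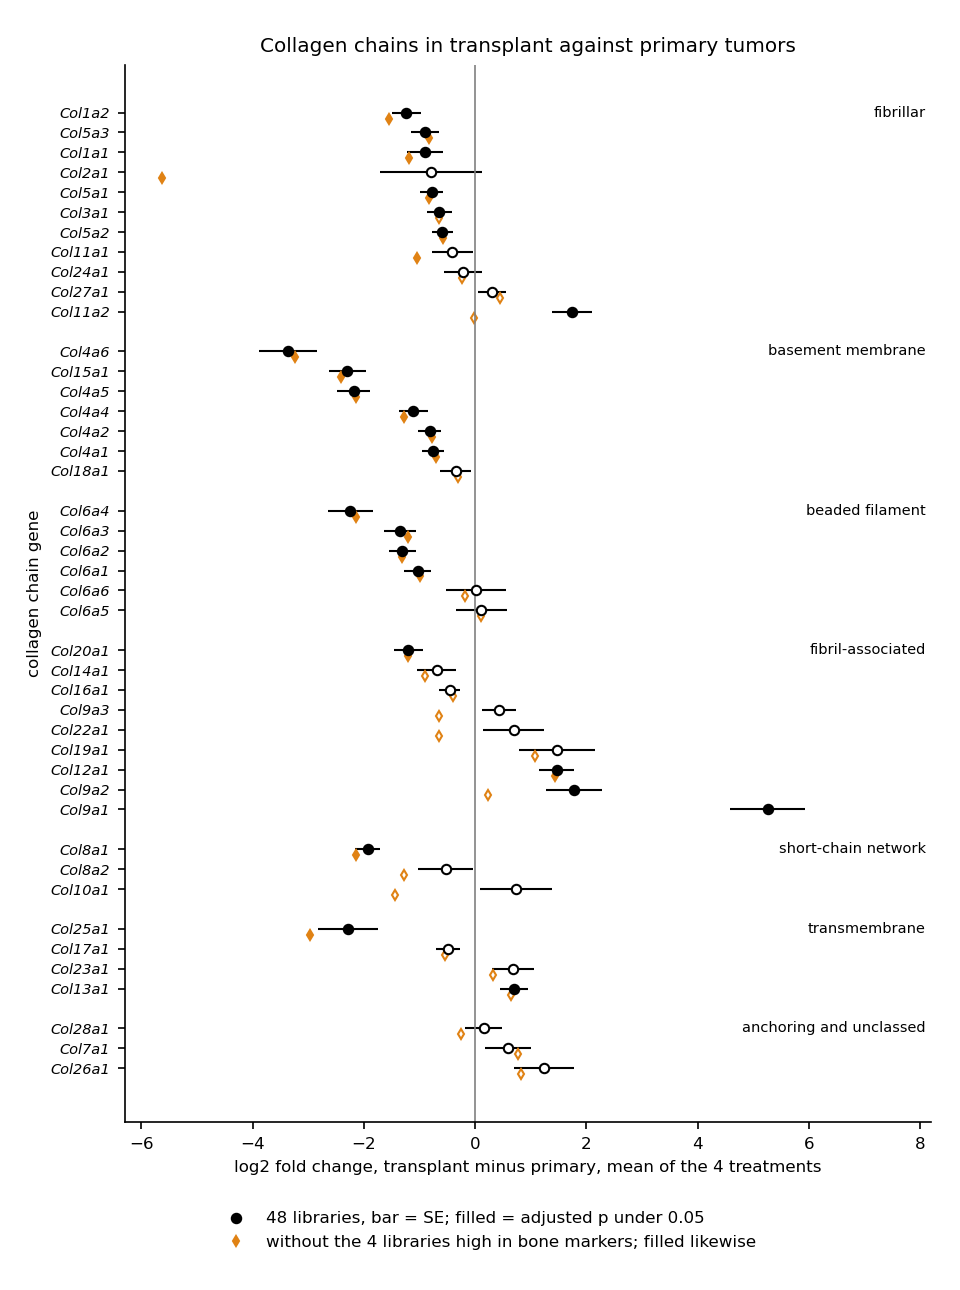
Log2 fold change of each collagen chain (y axis, by family) in transplant minus primary tumors, mean of the 4 treatments (x axis). Black points with SE bars come from the 48 libraries and orange diamonds from the fit without the 4 libraries high in bone genes, and filled symbols have an adjusted p under 0.05. Most filled points lie left of 0, and Col9a1 at 5.26 lies farthest right without having an orange diamond, since it was too low to be tested in that fit.

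Basement membrane chains were the family in which most members were lower in transplants. Col4a1 and Col4a2 form the type IV trimer found in nearly all basement membranes. Col4a1 stood at 976, 714, 974 and 621 CPM in transplants given 0 Gy and isotype, at 518, 1158, 782 and 1033 CPM after 0 Gy and anti-PD-1, at 589.8, 1120.3, 1002 and 1426 CPM after 20 Gy and isotype, and at 853, 269, 366 and 1182 CPM after 20 Gy and anti-PD-1. Col4a1 ran from 434 to 3627 CPM with a median of 1258 in the 32 primary tumors. The ranges overlapped, and the lowest library of all was a transplant given 20 Gy and anti-PD-1. Col4a1 changed by a log2 fold change of -0.76 ± 0.20 (SE, adjusted p = 0.00283), that is 1.69-fold lower in transplants. Col4a2 stood at 611, 423, 635 and 386 CPM in transplants given 0 Gy and isotype, at 308, 724, 494 and 672 CPM after 0 Gy and anti-PD-1, at 336, 746, 656 and 956 CPM after 20 Gy and isotype, and at 506, 148, 216 and 806 CPM after 20 Gy and anti-PD-1. Col4a2 ran from 299 to 2402 CPM with a median of 837 in the 32 primary tumors. Col4a2 followed the level of Col4a1 library by library, with a log2 fold change of -0.82 ± 0.21 (SE, adjusted p = 0.00211).

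Col4a5 and Col4a6 encode partner chains of type IV trimers of more restricted membranes, such as those of smooth muscle. Col4a5 was at 7.25, 8.80, 10.2 and 7.399 CPM in transplants given 0 Gy and isotype, at 4.29, 13.2, 8.34 and 7.58 CPM after 0 Gy and anti-PD-1, at 2.65, 4.82, 3.07 and 3.95 CPM after 20 Gy and isotype, and at 2.81, 3.67, 1.46 and 3.00 CPM after 20 Gy and anti-PD-1. Col4a5 ran from 1.90 to 86.1 CPM with a median of 18.3 in the 32 primary tumors. All transplants lay below the median primary tumor, the irradiated ones mostly lowest, and 8 primary tumors lay below the highest transplant. The log2 fold change of Col4a5 was -2.18 ± 0.30 (SE, adjusted p = 1.93e-07), 4.54-fold lower in transplants. Col4a6 was at 0.525, 0.367, 0.315 and 0.291 CPM in transplants given 0 Gy and isotype, at 0.140, 0.786, 0.507 and 0.355 CPM after 0 Gy and anti-PD-1, at 0.0195, 0.247, 0.110 and 0.152 CPM after 20 Gy and isotype, and at 0.0260, 0.145, 0 and 0.131 CPM after 20 Gy and anti-PD-1. Col4a6 ran from 0.0260 to 10.1 CPM with a median of 1.53 in the 32 primary tumors. Every transplant was under 1 CPM of Col4a6, and primary tumors spanned levels from those of the transplants to far above them. Its log2 fold change was -3.36 ± 0.52 (SE, adjusted p = 2.17e-06), 10.3-fold lower. Col4a4, which pairs with Col4a3 and Col4a5 in the filter of the kidney, was barely read, at 0.0599 to 0.818 CPM with a median of 0.341 in primary tumors and 0.0195 to 0.405 CPM with a median of 0.156 in transplants, and its log2 fold change was -1.11 ± 0.27 (SE, adjusted p = 0.001).

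Col15a1 and Col18a1 are the pair of chains that carry heparan or chondroitin sulfate and anchor basement membranes to the matrix beyond. Col15a1 was read at 26.9, 45.9, 71.8 and 31.9 CPM in transplants given 0 Gy and isotype, at 43.3, 40.7, 61.6 and 58.9 CPM after 0 Gy and anti-PD-1, at 16.9, 53.3, 58.6 and 36.1 CPM after 20 Gy and isotype, and at 24.8, 25.7, 17.3 and 53.9 CPM after 20 Gy and anti-PD-1. Col15a1 ran from 47.2 to 1063 CPM with a median of 165 in the 32 primary tumors. Apart from 6 transplants that reached the lowest primary tumors, transplant levels lay below the primary range. The log2 fold change of Col15a1 was -2.30 ± 0.32 (SE, adjusted p = 4.18e-07), 4.91-fold lower in transplants. Col18a1 was read at 252, 178, 234 and 159.9 CPM in transplants given 0 Gy and isotype, at 106.3, 393, 224 and 211 CPM after 0 Gy and anti-PD-1, at 164, 286, 291 and 319.6 CPM after 20 Gy and isotype, and at 252, 85.05, 100.9 and 339 CPM after 20 Gy and anti-PD-1. Col18a1 ran from 57.8 to 2016 CPM with a median of 219.9 in the 32 primary tumors. Here transplants lay inside the primary range, and Col18a1, the precursor of endostatin, was the basement membrane chain that was not called, with a log2 fold change of -0.35 ± 0.28 (SE, adjusted p = 0.353).

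**Figure D3:**
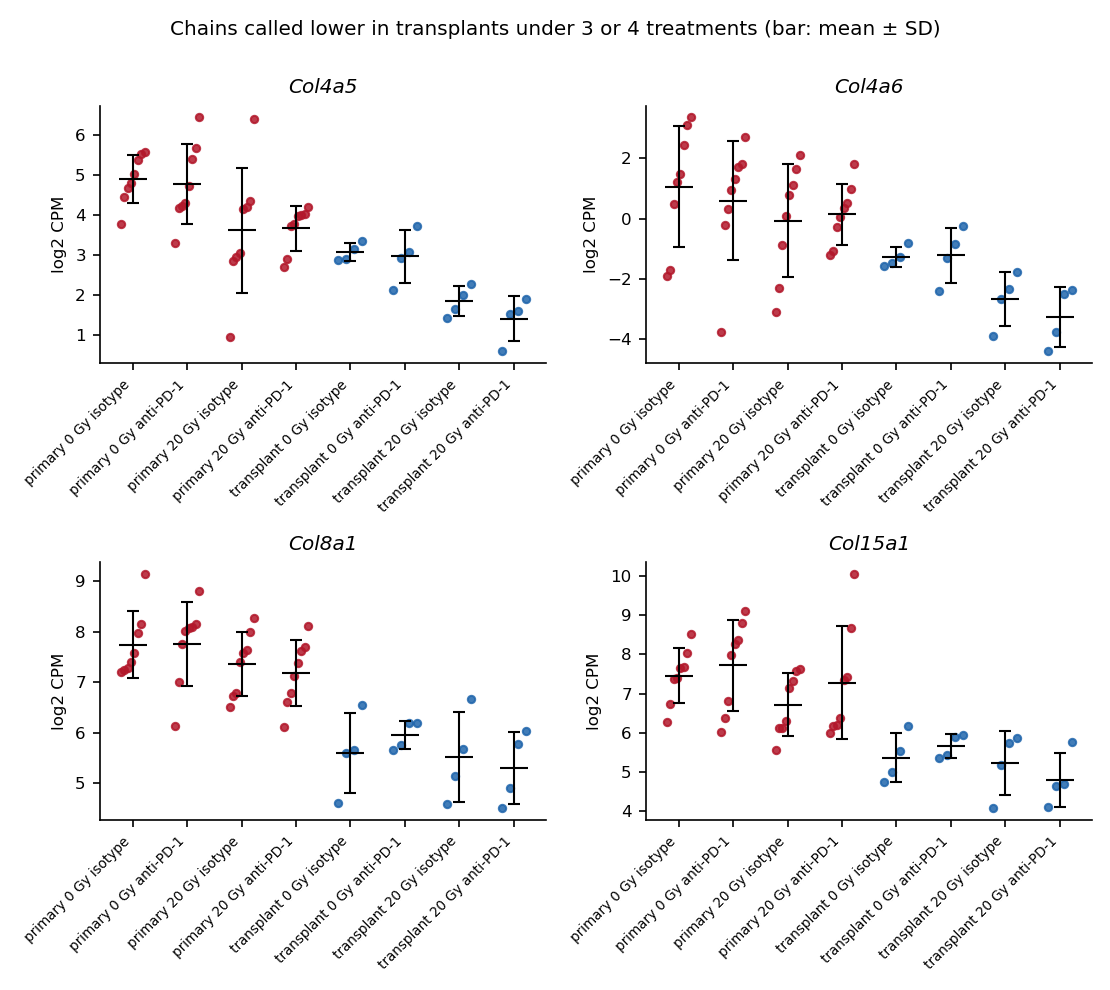
Log2 CPM (y axis) of Col4a5, Col4a6, Col8a1 and Col15a1 in every library of the 8 groups (x axis), red for primary and blue for transplant tumors, with the mean and SD of each group in black. Transplant means lie below primary means in all 4 treatments for each of the 4 chains, and some primary tumors reach down into the transplant range.

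Among fibrillar chains, those of types I, III and V were lower in transplants by less than the basement membrane chains Col4a5, Col4a6 and Col15a1. Compared with the abundant Col4a1 and Col4a2, the changes were larger in Col1a1, Col1a2 and Col5a3 and smaller in Col3a1 and Col5a2. Col1a1 stood at 2189.9, 1646, 3319 and 1930.1 CPM in transplants given 0 Gy and isotype, at 1758, 3249, 3769.97 and 3021 CPM after 0 Gy and anti-PD-1, at 597, 2872, 9544 and 1926 CPM after 20 Gy and isotype, and at 924, 1584, 905 and 5218 CPM after 20 Gy and anti-PD-1. Col1a1 ran from 1333 to 19939.9 CPM with a median of 4107 in the 32 primary tumors. The highest transplant, replicate 3 given 20 Gy and isotype, was also the one highest in bone genes, and the highest primary tumor was replicate 8 of the 20 Gy anti-PD-1 group. Col1a1, the major chain of type I collagen, had a log2 fold change of -0.90 ± 0.32 (SE, adjusted p = 0.0283). Its call was lost without the 3 libraries high in muscle genes, at -0.69 (adjusted p = 0.0665), and without each of 5 transplants in turn, that is, 0 Gy anti-PD-1 replicate 1, 0 Gy isotype replicate 2, 20 Gy anti-PD-1 replicates 1 and 3 and 20 Gy isotype replicate 1, with adjusted p of 0.0508 to 0.0575. Col1a2 stood at 1474, 1499, 2493 and 1369.5 CPM in transplants given 0 Gy and isotype, at 1475, 2499.9, 3359.7 and 1946 CPM after 0 Gy and anti-PD-1, at 635, 2088, 7048 and 1369 CPM after 20 Gy and isotype, and at 931, 1457, 698 and 3014 CPM after 20 Gy and anti-PD-1. Col1a2 ran from 1945 to 12854 CPM with a median of 4170.2 in the 32 primary tumors. Col1a2, the second chain of type I collagen, was 2.36-fold lower in transplants, with a log2 fold change of -1.24 ± 0.26 (SE, adjusted p = 0.000228). Most transplants lay below or near the lowest primary tumor, and again replicate 3 given 20 Gy and isotype stood far above the others.

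Type III collagen accompanies type I in loose tissue and vessel walls. Col3a1 stood at 5585, 4701, 4766 and 3899 CPM in transplants given 0 Gy and isotype, at 3524, 6474, 5838 and 5738 CPM after 0 Gy and anti-PD-1, at 2113, 5416, 5877 and 4220.2 CPM after 20 Gy and isotype, and at 3672, 2756, 1814 and 5887 CPM after 20 Gy and anti-PD-1. Col3a1 ran from 2674 to 23574 CPM with a median of 5667 in the 32 primary tumors. Both models overlapped over most of their range. Col3a1 had a log2 fold change of -0.65 ± 0.22 (SE, adjusted p = 0.0212), and -0.65 (adjusted p = 0.0597) without the 4 libraries high in bone genes. Type V collagen lies in the core of type I fibrils and limits their width. Col5a1 stood at 482, 428, 539 and 446 CPM in transplants given 0 Gy and isotype, at 337, 636, 554 and 647 CPM after 0 Gy and anti-PD-1, at 180.3, 509, 779 and 445 CPM after 20 Gy and isotype, and at 262, 236, 177 and 745 CPM after 20 Gy and anti-PD-1. Col5a1 ran from 275 to 2223 CPM with a median of 681 in the 32 primary tumors. The models overlapped, with the highest value in an unirradiated primary tumor. Col5a2 was measured at 964, 718, 770.3 and 692 CPM in transplants given 0 Gy and isotype, at 452, 1231, 881 and 816 CPM after 0 Gy and anti-PD-1, at 405, 832, 1000.2 and 802 CPM after 20 Gy and isotype, and at 539, 317, 267 and 943 CPM after 20 Gy and anti-PD-1. Col5a2 ran from 477 to 2174 CPM with a median of 957 in the 32 primary tumors. For both chains 4 transplants fell below the primary range, among them replicates 2 and 3 given 20 Gy and anti-PD-1 and replicate 1 given 20 Gy and isotype. The log2 fold change was -0.78 ± 0.21 (SE, adjusted p = 0.00323) for Col5a1 and -0.59 ± 0.18 (SE, adjusted p = 0.0111) for Col5a2. Col5a3, the third and rarer chain, ran from 38.2 to 193 CPM with a median of 104.4 in transplants and from 47.4 to 703 CPM with a median of 142.6 in primary tumors, with -0.90 ± 0.24 (SE, adjusted p = 0.00339). The minor fibrillar chains were not called, Col24a1 at -0.22 ± 0.34 (SE, adjusted p = 0.659) and Col27a1 at 0.31 ± 0.26 (SE, adjusted p = 0.378).

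Type VI collagen, made of Col6a1, Col6a2 and most often Col6a3, forms beaded filaments around muscle fibers, fibroblasts and adipocytes. Col6a1 stood at 998, 636, 587 and 627 CPM in transplants given 0 Gy and isotype, at 310.5, 958, 671 and 836 CPM after 0 Gy and anti-PD-1, at 193, 545, 644 and 561 CPM after 20 Gy and isotype, and at 320.5, 159, 187 and 614 CPM after 20 Gy and anti-PD-1. Col6a1 ran from 444 to 4069 CPM with a median of 972 in the 32 primary tumors. A single transplant, the 0 Gy isotype replicate 1, exceeded the median primary tumor. Col6a2 was measured at 716, 519, 464 and 468 CPM in transplants given 0 Gy and isotype, at 261, 711, 565 and 592 CPM after 0 Gy and anti-PD-1, at 123.5, 400.3, 533 and 375 CPM after 20 Gy and isotype, and at 227, 151, 142.9 and 435 CPM after 20 Gy and anti-PD-1. Col6a2 ran from 333 to 4384 CPM with a median of 879 in the 32 primary tumors. No transplant reached the primary median of this chain. Col6a3 was found at 606, 409, 393 and 448 CPM in transplants given 0 Gy and isotype, at 156, 763, 305 and 733 CPM after 0 Gy and anti-PD-1, at 245, 373, 331 and 569 CPM after 20 Gy and isotype, and at 303, 72.9, 114.6 and 466 CPM after 20 Gy and anti-PD-1. Col6a3 ran from 223 to 2373 CPM with a median of 777 in the 32 primary tumors. In all 3 chains the transplants filled the lower part of the primary range and went below it, most often after 20 Gy, and primary replicate 8 given 20 Gy and anti-PD-1 was the highest library. The log2 fold change was -1.03 ± 0.24 (SE, adjusted p = 0.000733) for Col6a1, -1.31 ± 0.25 (SE, adjusted p = 6.47e-05) for Col6a2 and -1.35 ± 0.29 (SE, adjusted p = 0.000263) for Col6a3.

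Col6a4, Col6a5 and Col6a6 encode chains that can take the place of Col6a3. Col6a4 stood at 0.596, 0.229, 0.270 and 0.381 CPM in transplants given 0 Gy and isotype, at 0.241, 0.661, 0.300 and 0.304 CPM after 0 Gy and anti-PD-1, at 0.623, 0.617, 0.301 and 0.405 CPM after 20 Gy and isotype, and at 0.390, 0.507, 0.511 and 0.861 CPM after 20 Gy and anti-PD-1. Col6a4 ran from 0.230 to 9.21 CPM with a median of 1.25 in the 32 primary tumors. Every transplant lay under 1 CPM of Col6a4 and under the median primary tumor, with overlap at the lower end. Col6a4 was 4.73-fold lower in transplants, with a log2 fold change of -2.24 ± 0.40 (SE, adjusted p = 2e-05), and its exons overlap those of antisense genes. Col6a5, at 0.11 ± 0.46 (SE, adjusted p = 0.875), and Col6a6, at 0.021 ± 0.54 (SE, adjusted p = 0.982), were not called.

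Fibril-associated chains sit on the surface of fibrils and included 3 of the 5 chains that were higher in transplants. Col12a1, which coats fibrils of tendon, muscle sheath and healing wounds, ran from 97.8 to 443 CPM with a median of 192 in transplants and from 7.20 to 289 CPM with a median of 62.3 in primary tumors. Col12a1 was measured at 190.5, 160.2, 206 and 140.4 CPM in transplants given 0 Gy and isotype, at 164, 157, 210.1 and 285 CPM after 0 Gy and anti-PD-1, at 189, 194, 432 and 409 CPM after 20 Gy and isotype, and at 204, 97.8, 124.2 and 443 CPM after 20 Gy and anti-PD-1. All transplants exceeded the median primary tumor. The log2 fold change of Col12a1 was 1.47 ± 0.31 (SE, adjusted p = 0.000274), 2.76-fold higher in transplants, and 1.44 (adjusted p = 0.0022) without the libraries high in bone genes. Col20a1, a related chain, was lower in transplants at -1.21 ± 0.26 (SE, adjusted p = 0.000354). Col16a1 stood at 345, 213, 256 and 219 CPM in transplants given 0 Gy and isotype, at 114.6, 426, 218 and 276 CPM after 0 Gy and anti-PD-1, at 111.03, 209.9, 215 and 219.6 CPM after 20 Gy and isotype, and at 134.9, 56.6, 62.0 and 246 CPM after 20 Gy and anti-PD-1. Col16a1 ran from 98.02 to 569 CPM with a median of 276 in the 32 primary tumors. Col16a1, a chain of fibrillin-rich and fibrillar matrix, overlapped between models and was not called, at -0.46 ± 0.19 (SE, adjusted p = 0.0561). Col14a1, which is close in structure to Col12a1, stood at -0.69 ± 0.35 (SE, adjusted p = 0.121), and neither Col19a1 at 1.46 ± 0.68 (SE, adjusted p = 0.0925) nor Col22a1, a chain of the muscle-tendon junction, at 0.69 ± 0.54 (SE, adjusted p = 0.347) was called. DESeq2 and limma voom, other than edgeR, called Col16a1 lower, with adjusted p of 0.0359 and 0.0467. Limma voom also called Col19a1 higher, at 1.97 (adjusted p = 0.0382). Without the 3 libraries high in muscle genes, edgeR called Col19a1 higher at 2.49 (adjusted p = 0.00165) and Col22a1 at 1.30 (0.0383). With the mean level of the muscle genes as a covariate, edgeR called Col14a1 lower, at -0.88 (adjusted p = 0.028).

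Col8a1, a short-chain collagen of vessel walls and of the membrane behind the cornea, showed the smallest adjusted p of all chains. Col8a1 was found at 24.3, 48.2, 93.4 and 50.8 CPM in transplants given 0 Gy and isotype, at 73.3, 54.4, 73.0 and 50.7 CPM after 0 Gy and anti-PD-1, at 24.1, 51.0, 101.9 and 35.5 CPM after 20 Gy and isotype, and at 30.1, 54.9, 22.8 and 65.5 CPM after 20 Gy and anti-PD-1. Col8a1 ran from 69.3 to 567 CPM with a median of 192 in the 32 primary tumors. Of the 16 transplants, 12 lay below every primary tumor and the other 4 overlapped the lowest primary tumors. Col8a1 was 3.82-fold lower in transplants, with a log2 fold change of -1.93 ± 0.23 (SE, adjusted p = 9.44e-09), while its partner chain Col8a2 had -0.53 ± 0.50 (SE, adjusted p = 0.44).

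Transmembrane collagens span the cell surface. Col25a1 lay at 0.0239, 0.0229, 0.293 and 0 CPM in transplants given 0 Gy and isotype, at 0.100, 0.143, 0.184 and 0 CPM after 0 Gy and anti-PD-1, at 0, 0.395, 0.411 and 0.177 CPM after 20 Gy and isotype, and at 0.182, 0.435, 0.0974 and 0.235 CPM after 20 Gy and anti-PD-1. Col25a1 ran from 0 to 3.72 CPM with a median of 0.467 in the 32 primary tumors. At these low levels transplants lay inside the lower part of the primary range. Col25a1, a chain of muscle and neurons, was 4.88-fold lower, with a log2 fold change of -2.29 ± 0.54 (SE, adjusted p = 0.000835), and at -2.85 without the 0 Gy isotype replicate 3. Col13a1, a chain of the neuromuscular junction, was higher at 0.70 ± 0.25 (SE, adjusted p = 0.0245), but lost its call without 20 Gy anti-PD-1 replicate 1 (adjusted p = 0.051), without replicate 4 of that group (0.0549), without 20 Gy isotype replicate 3 (0.0573) and without the 4 libraries high in bone genes, at 0.64 (adjusted p = 0.0957). Col17a1, a hemidesmosome chain of epithelium, stood at -0.49 ± 0.22 (SE, adjusted p = 0.0816) and Col23a1 at 0.68 ± 0.38 (SE, adjusted p = 0.168). The anchoring fibril chain Col7a1, at 0.58 ± 0.41 (SE, adjusted p = 0.291), and the unclassed chains Col26a1, at 1.24 ± 0.53 (SE, adjusted p = 0.0662), and Col28a1, at 0.15 ± 0.34 (SE, adjusted p = 0.766), were not called. Limma voom called Col7a1 higher at 1.10 (adjusted p = 0.0338) and Col26a1 at 1.59 (0.0186). Without the libraries high in muscle genes edgeR called Col26a1 higher, at 1.62 (adjusted p = 0.0151). With the mean level of the muscle genes as a covariate, edgeR called Col17a1 lower, at -0.56 (adjusted p = 0.0436).

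The other 3 chains that were higher in transplants, Col9a1, Col9a2 and Col11a2, belong to the collagen of cartilage, where type IX collagen decorates fibrils of types II and XI. Col9a1 stood at 0.0477, 0.0458, 3.22 and 0.202 CPM in transplants given 0 Gy and isotype, at 0.0802, 0, 10.5 and 0.0507 CPM after 0 Gy and anti-PD-1, at 0.0195, 0.0741, 3.29 and 0 CPM after 20 Gy and isotype, and at 0, 0.966, 0.195 and 0.653 CPM after 20 Gy and anti-PD-1. Col9a1 ran from 0 to 0.135 CPM with a median of 0.00978 in the 32 primary tumors. In 3 of the 4 groups replicate 3 stood far above the rest, and in the other transplants Col9a1 lay under 1 CPM. The log2 fold change of Col9a1 was 5.26 ± 0.68 (SE, adjusted p = 7.18e-08), and 3.79 without the 0 Gy anti-PD-1 replicate 3. Without the 4 libraries high in bone genes Col9a1 fell short of the read minimum and was not tested. Col11a2 stood at 1.98, 2.06, 16.8 and 3.70 CPM in transplants given 0 Gy and isotype, at 2.81, 3.27, 26.8 and 2.31 CPM after 0 Gy and anti-PD-1, at 1.85, 3.70, 109.9 and 1.85 CPM after 20 Gy and isotype, and at 1.59, 4.15, 7.84 and 2.95 CPM after 20 Gy and anti-PD-1. Col11a2 ran from 0.598 to 9.45 CPM with a median of 2.25 in the 32 primary tumors. Apart from replicate 3 of the 0 Gy isotype, 0 Gy anti-PD-1 and 20 Gy isotype groups, Col11a2 lay inside the primary range in the transplants. Col11a2 was at 1.74 ± 0.36 (SE, adjusted p = 0.000192) over all libraries, at 0.84 (adjusted p = 0.0254) without the 20 Gy isotype replicate 3, and at -0.014 (adjusted p = 0.975) without the 4 libraries.

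Col9a2 behaved alike. It ran from 0.0584 to 8.06 CPM with a median of 0.605 in transplants and from 0 to 2.76 CPM with a median of 0.274 in primary tumors, with 1.78 ± 0.50 (SE, adjusted p = 0.00505). Its call was lost without 0 Gy anti-PD-1 replicate 3, at 1.16 (adjusted p = 0.0682), without 20 Gy isotype replicate 3, at 1.05 (0.0996), and without the 4 libraries, at 0.24 (adjusted p = 0.769). Col9a3, the third chain of type IX, was at 0.42 ± 0.30 (SE, adjusted p = 0.296).

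Chains of the same tissue that were not called over all libraries moved with the same libraries. In replicate 3 of the 0 Gy isotype, 0 Gy anti-PD-1, 20 Gy isotype and 20 Gy anti-PD-1 transplants, in this order, the summed bone genes were 51.4, 246, 706 and 39.4 CPM. In the same 4 libraries Col2a1, the main cartilage chain, was at 44.9, 112.2, 31.0 and 0.0974 CPM. Col10a1, a marker of hypertrophic cartilage cells, was at 3.53, 26.5, 5.92 and 0.0243 CPM. The first 3 libraries were high in these chains and the fourth was not. Over all libraries Col2a1 ran from 0.0253 to 112.2 CPM with a median of 0.126 in transplants and from 0.101 to 117.2 CPM with a median of 1.51 in primary tumors, with a log2 fold change of -0.80 ± 0.92 (SE, adjusted p = 0.541), but -5.63 (adjusted p = 0.000127) without the 4 libraries, which is lower in transplants. Col11a1 went from -0.41 ± 0.37 (SE, adjusted p = 0.416) to -1.05 (adjusted p = 0.0418), and Col10a1 was at 0.74 ± 0.65 (SE, adjusted p = 0.403). The libraries left out are all transplants, 3 of the 4 with high Col2a1, while primary tumors of up to 117.2 CPM were kept. The calls of Col2a1 and Col11a1 in that fit are thus no independent evidence of a difference between models. The part of bone or cartilage next to the tumor in these levels was not tested.

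**Figure D4:**
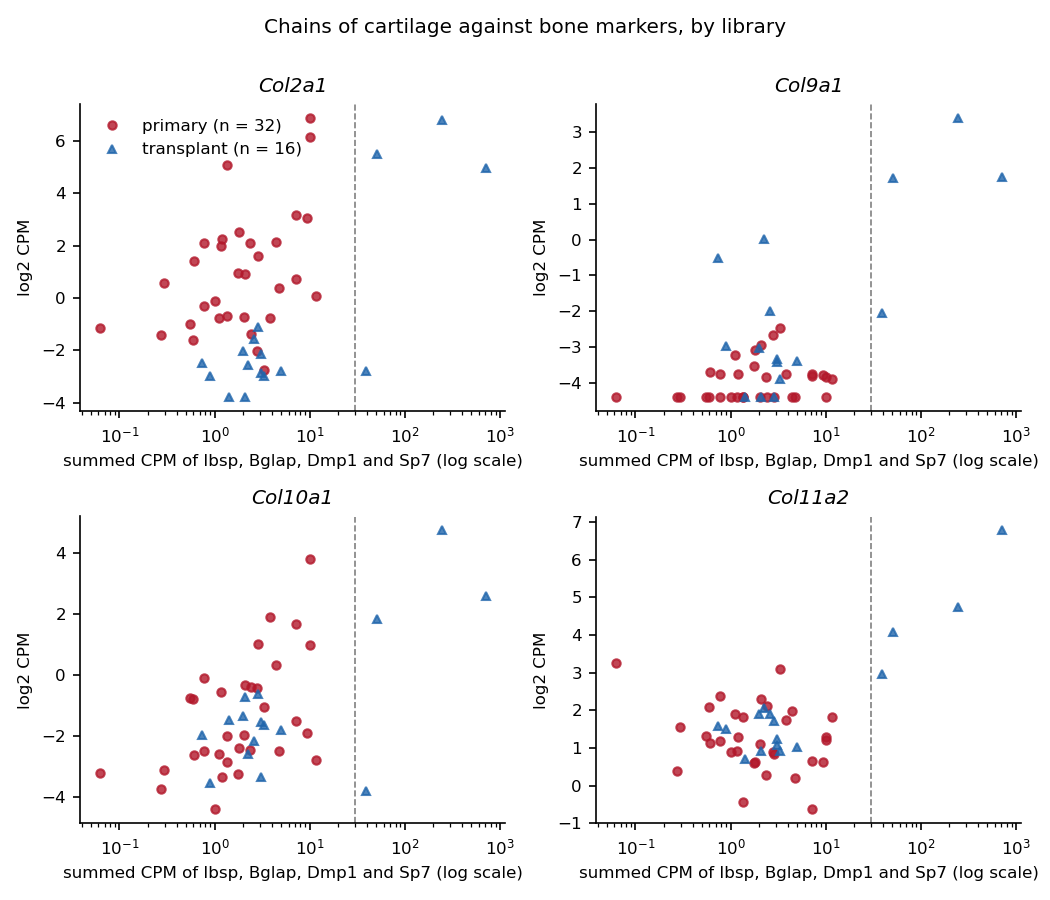
Log2 CPM (y axis) of Col2a1, Col9a1, Col10a1 and Col11a2 against the summed CPM of the bone genes Ibsp, Bglap, Dmp1 and Sp7 on a log scale (x axis), 1 point per library, red circles for the 32 primary tumors and blue triangles for the 16 transplants. The dashed line marks 30 CPM, and the 4 transplants to its right include the highest libraries of Col9a1, Col10a1 and Col11a2.

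Within single treatments, each with 4 transplants against 8 primary tumors, fewer chains were called. After 0 Gy and isotype 1 chain was higher and 5 were lower, where 3.88% of all genes were higher and 6.41% lower (10.3% called in all). After 0 Gy and anti-PD-1 3 were higher and 4 lower (all genes 3.39% and 3.96%, 7.35% in all), after 20 Gy and isotype 3 and 3 (2.47% and 2.4%, 4.87% in all), and after 20 Gy and anti-PD-1 0 and 8 (3.04% and 3.72%, 6.76% in all). Beside the 0 chains higher in the last group, edgeR gave an unadjusted p under 0.05 to 19 chains in either direction, DESeq2 called 0 higher and 13 lower and limma voom 0 and 9. Col4a5 and Col8a1 were lower under all 4 treatments, Col15a1 and Col4a6 under 3, and Col9a1 was higher under 3.

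The log2 fold changes in the order 0 Gy isotype, 0 Gy anti-PD-1, 20 Gy isotype and 20 Gy anti-PD-1 were -1.92, -2.02, -2.51 and -2.28 for Col4a5. For Col8a1 they were -2.15, -1.96, -1.76 and -1.87, for Col15a1 -2.14, -2.40, -1.54 and -3.11 and for Col4a6 -3.35, -2.43, -3.59 and -4.08. The 4 chains were listed for their calls under at least 3 treatments, so their shared direction in every treatment adds no support. Chains called in no single treatment, such as Col1a1, Col3a1 and Col14a1, also lay below 0 in all 4. Col12a1 was at 1.02, 2.09, 2.09 and 0.67 and was called after 0 Gy anti-PD-1 and 20 Gy isotype, as was Col11a2 at 1.60, 2.28, 2.85 and 0.22. Of 27 calls in single treatments, 2 held without each of the 4 transplants in turn, both of Col8a1 after 0 Gy, and 5 were lost whichever library was left out. Those 5 were Col1a2, Col4a5 and Col4a6 after 0 Gy and isotype and Col4a6 and Col12a1 after 20 Gy and isotype. Col9a1 was lost without replicate 3 of the 0 Gy isotype (adjusted p = 0.48), 0 Gy anti-PD-1 (0.797) and 20 Gy isotype (0.98) groups, and Col11a2 after 20 Gy and isotype turned to -0.70 without replicate 3, while after 0 Gy and anti-PD-1 it was at 0.59 (adjusted p = 0.776) without replicate 3. After 20 Gy and anti-PD-1, Col4a1, Col4a2, Col6a1 and Col6a2 were called lower as well, at -1.40, -1.37, -1.86 and -2.25, where 4, 3, 0 and 14 chains were called without replicates 1, 2, 3 and 4, the 0 with 13 chains at an unadjusted p under 0.05. After 0 Gy and anti-PD-1 the same counts were 2, 6, 1 and 5, after 0 Gy and isotype 2, 2, 3 and 2, and after 20 Gy and isotype 2, 3, 2 and 3. In the 0 Gy anti-PD-1 group Col6a4 was also lower, at -2.82, and in the 0 Gy isotype group Col1a2, at -1.67. These 4 comparisons shared no libraries but were not independent repeats. All transplants came from line 402230, and the count filter, the scaling and the estimate of the spread were common to the 48 libraries.

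Few collagen chains were called after radiation. In primary tumors, over the mean of both antibodies with 16 irradiated against 16 unirradiated libraries, 3 of 43 chains were higher and 5 lower, where 16.8% and 14.2% of all genes were (31% called in all). EdgeR gave an unadjusted p under 0.05 to 17 of these chains, a threshold also passed by all of the 31% of genes called. The median log2 fold change was -0.18 over the chains and 0.0037 over all genes. Of 9 muscle genes 7 were called higher at 20 Gy in these tumors, and their part in the chain values was not tested. Their summed level had a median of 1560 CPM at 0 Gy and 1800 CPM at 20 Gy. The 3 libraries high in muscle genes, at 24040.4 to 74024 CPM, were all irradiated. None of the 11 fibrillar chains was called by edgeR over the 48 libraries, with 4 at an unadjusted p under 0.05. DESeq2 and limma voom called 11 and 7 chains of all families. Other edgeR fits called Col11a2 higher, at 1.01 (adjusted p = 0.00905) on the primary groups alone and at 0.99 (0.00493) without the 4 bone-high transplants. The latter fit also called Col2a1 lower, at -2.04 (0.0495). Col8a2 and Col9a2 were called lower by DESeq2 and by edgeR without the bone-high or the muscle-high libraries.

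Col4a5 ran from 9.76 to 86.1 CPM with a median of 27.0 at 0 Gy and from 1.90 to 83.2 CPM with a median of 14.6 at 20 Gy in primary tumors. Its irradiated tumors were shifted down, with 1 of them nearly as high as the highest unirradiated one, and the log2 fold change was -0.99 ± 0.31 (SE, adjusted p = 0.0129). Col4a4 followed at -0.77 ± 0.29 (SE, adjusted p = 0.0375). Col6a3 ran from 498 to 2366 CPM with a median of 1169.8 at 0 Gy and from 223 to 2373 CPM with a median of 591 at 20 Gy, with -0.84 ± 0.31 (SE, adjusted p = 0.0375), and -0.83 (adjusted p = 0.0517) without the 4 transplants high in bone genes, whereas Col6a1 and Col6a2 stood at -0.18 ± 0.26 (SE, adjusted p = 0.641) and -0.14 ± 0.27 (SE, adjusted p = 0.728). Col16a1 ran from 146 to 569 CPM with a median of 346 at 0 Gy and from 98.02 to 476 CPM with a median of 184 at 20 Gy, with -0.65 ± 0.22 (SE, adjusted p = 0.0202). Irradiated tumors of both chains mostly lay below the unirradiated median. Col10a1 ran from 0 to 14.0 CPM with a median of 0.471 at 0 Gy and from 0.0274 to 1.20 CPM with a median of 0.126 at 20 Gy, with -2.43 ± 0.79 (SE, adjusted p = 0.0164), and no irradiated tumor reached the 4 highest unirradiated ones.

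Of the higher chains, Col28a1 ran from 0.0260 to 2.11 CPM with a median of 0.696 at 0 Gy and from 0.664 to 7.86 CPM with a median of 2.07 at 20 Gy and had a log2 fold change of 1.57 ± 0.40 (SE, adjusted p = 0.00262). Col9a3 ran from 0.187 to 1.30 CPM with a median of 0.619 at 0 Gy and from 0.528 to 4.91 CPM with a median of 1.26 at 20 Gy, at 1.05 ± 0.36 (SE, adjusted p = 0.0234). Col19a1, a minor fibril-associated chain, ran from 0 to 0.700 CPM with a median of 0.0401 at 0 Gy and from 0 to 9.17 CPM with a median of 0.0630 at 20 Gy and had 3.02 ± 0.90 (SE, adjusted p = 0.00911). The medians of Col19a1 lay near 0 at both doses, and its change rested on replicate 4 of the 20 Gy anti-PD-1 group at 9.17 CPM and replicate 4 of the 20 Gy isotype group at 2.66 CPM, both high in muscle genes. Without the 3 muscle-high libraries Col19a1 was at 0.97 (adjusted p = 0.424) and Col9a3 at 0.85 (adjusted p = 0.0756), while Col28a1 stayed called at 1.27 (adjusted p = 0.0205), as did Col4a5 at -0.99 (adjusted p = 0.0277).

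Separately by antibody, radiation of primary tumors gave 2 lower chains with isotype, Col10a1 at -3.26 ± 1.15 (SE, adjusted p = 0.0413) and Col4a4 at -1.27 ± 0.41 (SE, adjusted p = 0.0261), where 9.1% of all genes were lower and 9.19% higher (18.3% called in all). With anti-PD-1 it gave 1, Col4a5 at -1.35 ± 0.44 (SE, adjusted p = 0.0392), where 3.25% of all genes were lower and 7.92% higher (11.2% in all). In transplants, over both antibodies with 8 against 8 libraries, Col4a5 was the 1 chain called, where 1.38% of all genes were lower and 5.85% higher (7.23% in all). Col4a5 stood at 7.25, 8.80, 10.2 and 7.399 CPM after 0 Gy and isotype and at 4.29, 13.2, 8.34 and 7.58 CPM after 0 Gy and anti-PD-1, against 2.65, 4.82, 3.07 and 3.95 and 2.81, 3.67, 1.46 and 3.00 CPM after 20 Gy. Irradiated transplants lay nearly all below the unirradiated ones, and the log2 fold change was -1.41 ± 0.44 (SE, adjusted p = 0.041). The call held without 0 Gy anti-PD-1 replicate 1 or 20 Gy isotype replicate 2 and was lost without each of the other 14 transplants, with adjusted p up to 0.103 and log2 fold changes of -1.48 to -1.26, and also without the 4 libraries high in bone genes, at -1.20 (adjusted p = 0.22). Within isotype and within anti-PD-1, edgeR called 0 chains, with 1 and 7 at an unadjusted p under 0.05, where 1.82% and 0.538% of all genes were higher and 0.103% and 0.0569% lower (1.92% and 0.595% in all). DESeq2 called 0 and 1 and limma voom 0 and 0. The difference between models in the response to radiation was called for 0 chains by edgeR, DESeq2 and limma voom, with 3, 3 and 1 at an unadjusted p under 0.05, where edgeR called 0.0259% of all genes (0.0155% higher and 0.0103% lower).

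**Figure D5:**
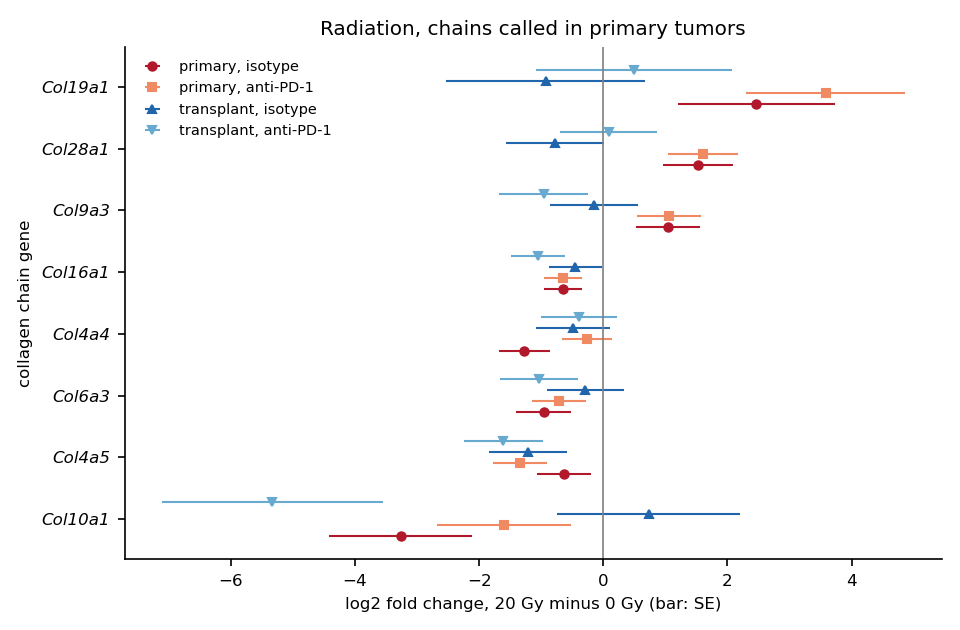
Log2 fold change of 20 Gy minus 0 Gy (x axis, bars SE) for the 8 collagen chains called in primary tumors (y axis), with red and orange for primary tumors given isotype and anti-PD-1 and dark and light blue for the same in transplants. Col4a5, Col4a4, Col6a3 and Col16a1 lie left of 0 in all 4 series, and Col19a1 and Col28a1 lie right of 0 in both primary series.

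Anti-PD-1 against isotype gave 0 called chains by edgeR in each of the 4 comparisons, where 0% of all genes were called. Unadjusted p-values under 0.05 were found for 0 chains in primary tumors at 0 Gy, 7 at 20 Gy, 0 in transplants at 0 Gy and 3 at 20 Gy. DESeq2 called 1 chain, Col18a1 in primary tumors at 20 Gy, with a log2 fold change of 1.78 ± 0.44 (SE, adjusted p = 0.0324), and limma voom called 0. Col18a1 was at 75.3 to 258 CPM with a median of 154 in the 8 isotype tumors and at 165 to 2016 CPM with a median of 299.9 in the 8 anti-PD-1 tumors, and edgeR put its log2 fold change at 1.76 ± 0.46 (SE, adjusted p = 0.193). The ranges overlapped, and the highest tumor was replicate 8, also high in muscle genes.

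Chains that share a trimer were followed across tumors, as deviations of log2 CPM from the group means, in 9 of 10 listed pairs (Col4a3 was too low for the pair with Col4a4). Points share libraries and depth. Col1a1 and Col1a2 had Pearson r = 0.943 and Spearman rho = 0.929 in the 32 primary tumors, and 0.975 and 0.932 in the 16 transplants. Col4a1 and Col4a2 had r = 0.971 and rho = 0.964, and 0.997 and 0.994. Col6a1 and Col6a2 had r = 0.966 and rho = 0.959, and 0.978 and 0.979, and Col6a1 with Col6a3 had r = 0.796 and rho = 0.705, and 0.867 and 0.865. Col5a1 and Col5a2 had r = 0.888 and rho = 0.904, and 0.906 and 0.797. The partners of the abundant trimers moved together in both models, and without the 2 most distant libraries on the first gene's axis r stayed between 0.707 and 0.996 for these 5 pairs. Adjusted permutation p-values over the 9 pairs lay between 1.8e-05 and 0.00248.

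All 9 pairs had a smaller r in primary tumors than in transplants, and the gap in r was larger for the pairs of rarer chains. These differences were not tested. Col4a5 and Col4a6 had r = 0.615 and rho = 0.699 in primary tumors (adjusted permutation p = 0.000527 and 0.00015) and 0.848 and 0.744 in transplants (0.000574 and 0.00495), and 0.572 and 0.739 without the 2 farthest libraries. Col8a1 and Col8a2 had r = 0.627 and rho = 0.503 (0.00048 and 0.00608), and 0.884 and 0.891 (0.000375 and 0.000427), with r of 0.502 and 0.839 without the 2 farthest. The cartilage pair Col9a1 and Col9a2 had r = 0.382 and rho = 0.425 (0.0285 and 0.0168), and 0.924 and 0.774 (0.000489 and 0.00265), with r of 0.352 and 0.844. Col11a1 and Col11a2 had r = 0.256 and rho = 0.243 (0.194 and 0.202) in primary tumors, and 0.853 and 0.841 (0.00496 and 0.00087) in transplants, with r of 0.192 and 0.602. In the transplants the values of both cartilage pairs include the 4 libraries high in bone genes.

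Per kb, Col1a1 exceeded Col1a2 by a factor of 1.80 in primary tumors and 2.42 in transplants, with a mean log2 ratio of 0.85 ± 0.38 (SD, n = 32) and 1.27 ± 0.24 (n = 16). For Col4a1 over Col4a2 the log2 ratio was 0.43 ± 0.17 and 0.51 ± 0.090, and for Col6a1 over Col6a2 it was 1.08 ± 0.20 and 1.32 ± 0.14. These ratios rest on the exon union, 6563 bases for Col1a1 and 12426 for Col1a2, against 5930 and 5348 bases of the longest coding transcript. With the latter, a length chosen after seeing the data, the log2 ratio of Col1a1 to Col1a2 was -0.22 ± 0.38 and 0.20 ± 0.24, that of Col4a1 to Col4a2 0.57 ± 0.17 and 0.65 ± 0.090 and that of Col6a1 to Col6a2 0.34 ± 0.20 and 0.58 ± 0.14. Which chain of type I was higher in primary tumors thus turned with the length. The median SD of log2 CPM over the chains was 1.01 in primary tumors and 0.73 in transplants, against 0.52 and 0.40 over all genes, and 27 of the 43 chains (62.8%) had the larger SD in primary tumors, against 79.8% of all genes.

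Genes that modify, assemble, bind or degrade collagen were listed beside the chains. Of 20 hydroxylases, glycosyltransferases and chaperones, 9 were lower in transplants and 1 was higher, where 19.1% of all genes were lower and 15.7% higher, the shares against which the list counts of this comparison are to be read. P4ha3, a subunit of the proline hydroxylase, stood at 15.7 ± 9.35 against 60.3 ± 25.3 CPM (SD) in transplants against primary tumors, with -1.93 ± 0.24 (adjusted p = 3.23e-08), Colgalt2, a collagen galactosyltransferase, at -0.54 ± 0.18 (adjusted p = 0.0172), the chaperone Fkbp10 at -0.39 ± 0.12 (adjusted p = 0.0123) and, higher, P3h4 at 0.38 ± 0.10 (adjusted p = 0.00277). Of 8 tested genes for the removal of propeptides, 4 were lower and 1 was higher. They included the protease Adamts2, which trims the amino end of procollagen, at 22.6 ± 17.7 against 121.2 ± 61.9 CPM with -2.46 ± 0.32 (adjusted p = 9.14e-08), Tll2 at -2.90 ± 0.65 (adjusted p = 0.000553), the enhancer Pcolce2 at -2.23 ± 0.44 (adjusted p = 9.06e-05) and, higher, Adamts3 at 0.95 ± 0.26 (adjusted p = 0.00304). Of 6 cross-linking enzymes 3 were lower, the lysyl oxidase relatives Loxl3 at -1.77 ± 0.21 (adjusted p = 1.7e-08), Loxl1 at -0.84 ± 0.13 (adjusted p = 3.06e-06) and Loxl4 at -0.69 ± 0.20 (adjusted p = 0.00677).

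Of 15 proteins that bind fibrils, 8 were lower in transplants. Fibronectin (Fn1) stood at 1545 ± 735 against 4791 ± 2326 CPM, with -1.65 ± 0.25 (adjusted p = 1.23e-06), the proteoglycan Lum at -2.36 ± 0.49 (adjusted p = 0.00019) and Tnxb at -2.03 ± 0.42 (adjusted p = 0.000164). Of 9 tested collagen receptors 4 were lower, with Itga10 at -1.36 ± 0.33 (adjusted p = 0.00123), the uptake receptor Mrc2 at -0.89 ± 0.16 (adjusted p = 1.8e-05) and the tyrosine kinase Ddr2 at -0.65 ± 0.11 (adjusted p = 1.38e-05), and Lair1, an inhibitory receptor of leukocytes, was higher at 0.82 ± 0.21 (adjusted p = 0.00252). Of 15 other basement membrane proteins 8 were lower and 3 higher. The laminin chains Lamc3 at -2.42 ± 0.62 (adjusted p = 0.00206) and Lama2 at -1.34 ± 0.32 (adjusted p = 0.000851) and perlecan (Hspg2) at -0.99 ± 0.21 (adjusted p = 0.000223) were lower, and Lama1 at 1.83 ± 0.30 (adjusted p = 5.42e-06) and Lamb3 at 0.86 ± 0.22 (adjusted p = 0.00193) were among the higher ones. Of 6 collagen-degrading proteases 2 were lower, Ctsk at -1.09 ± 0.31 (adjusted p = 0.00533) and Fap at -0.98 ± 0.28 (adjusted p = 0.00498), and 2 higher, the collagenase Mmp13 at 169.97 ± 213 against 15.01 ± 12.6 CPM with 2.98 ± 0.28 (adjusted p = 3.83e-11) and Mmp8 at 1.09 ± 0.43 (adjusted p = 0.0463). Mmp8 stood at 6.24 ± 5.78 against 8.08 ± 23.8 CPM, so its plain mean was not higher in transplants, and its call was lost without 7 of the 16 transplants in turn, that is, replicates 2 and 3 given 0 Gy and isotype, replicate 3 given 0 Gy and anti-PD-1, replicates 3 and 4 given 20 Gy and isotype and replicates 2 and 3 given 20 Gy and anti-PD-1, with adjusted p up to 0.221. Without the libraries high in bone genes Mmp8 was at 0.30 (adjusted p = 0.688) and Fkbp10 at -0.35 (adjusted p = 0.0706), and without those high in muscle genes Mmp8 was at 0.97 (adjusted p = 0.0817).

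After radiation of primary tumors, 11 of the 20 modifying enzymes and chaperones were lower and 1 was higher, where 14.2% of all genes were lower and 16.8% higher. Fkbp10 was at -0.68 ± 0.14 (adjusted p = 0.000322), Colgalt2 at -0.63 ± 0.21 (adjusted p = 0.0165), the collagen chaperone Serpinh1 at -0.54 ± 0.15 (adjusted p = 0.00694) and, higher, Tmem38b at 1.03 ± 0.24 (adjusted p = 0.000943). Of the other lists, 2 of 8 propeptide genes were lower (Tll2 at -1.64 ± 0.55 (adjusted p = 0.022) and Adamts14 at -0.60 ± 0.20 (adjusted p = 0.019)), 3 of 6 cross-linking enzymes (Pxdn at -0.91 ± 0.18 (adjusted p = 0.000148), Loxl1 at -0.68 ± 0.15 (adjusted p = 0.000517) and Loxl4 at -0.59 ± 0.23 (adjusted p = 0.0436)) and 2 of 15 fibril binders, a share near that of all genes (Aspn at -1.19 ± 0.32 (adjusted p = 0.00377) and Dpt at -0.96 ± 0.35 (adjusted p = 0.0324)). Among receptors 4 were lower, with Itga10 at -1.33 ± 0.36 (adjusted p = 0.00475), Ddr2 at -0.58 ± 0.13 (adjusted p = 0.00054) and Mrc2 at -0.55 ± 0.17 (adjusted p = 0.0145), and Lair1 was higher at 0.81 ± 0.26 (adjusted p = 0.0138). Of the basement membrane proteins Hspg2 at -0.62 ± 0.23 (adjusted p = 0.0356) and Nid2 at -0.60 ± 0.21 (adjusted p = 0.0292) were lower and Agrn at 0.69 ± 0.25 (adjusted p = 0.0326) and Lamb3 at 1.57 ± 0.27 (adjusted p = 1.74e-05) higher.

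The neutrophil collagenase Mmp8 stood at 15.5 ± 32.5 against 0.688 ± 0.813 CPM after radiation of primary tumors, with 4.12 ± 0.59 (adjusted p = 7.31e-07), Mmp13 at 0.90 ± 0.33 (adjusted p = 0.0344) and Mmp14, lower, at -0.34 ± 0.13 (adjusted p = 0.0354). Without the muscle-high libraries Mmp14 was at -0.30 (adjusted p = 0.115), Adamts14 at -0.49 (adjusted p = 0.0739) and Hspg2 at -0.57 (adjusted p = 0.0913). Without the bone-high transplants Mmp14 was at -0.33 (adjusted p = 0.0598) and Loxl4 at -0.58 (adjusted p = 0.0568). In transplants radiation left 1 gene lower in each of 3 lists, Fkbp14 at -0.60 ± 0.19 (adjusted p = 0.0413), Tll1 at -1.61 ± 0.52 (adjusted p = 0.0468) and Loxl2 at -0.96 ± 0.28 (adjusted p = 0.0242). Lair1 at 1.20 ± 0.36 (adjusted p = 0.0321) and Mmp13, at 297 ± 243 against 42.6 ± 32.6 CPM with 2.76 ± 0.49 (adjusted p = 0.000232), were higher. Over all genes 1.38% were lower and 5.85% higher in that comparison. Leaving out each of the 16 transplants in turn, Mmp13 stayed called, while Fkbp14 lost its call in 12 fits, Tll1 in 14, Loxl2 in 5 and Lair1 in 8. Fkbp14 held without 0 Gy isotype replicate 3, 0 Gy anti-PD-1 replicate 4, 20 Gy isotype replicate 3 or 20 Gy anti-PD-1 replicate 4, and Tll1 without 0 Gy isotype replicate 3 or 20 Gy anti-PD-1 replicate 4. Loxl2 was lost without 0 Gy isotype replicate 2, 0 Gy anti-PD-1 replicate 4, 20 Gy isotype replicate 1 or 20 Gy anti-PD-1 replicates 2 and 3. Lair1 was lost without each of these 5 and without 0 Gy isotype replicates 1 and 4 and 0 Gy anti-PD-1 replicate 2. Their highest adjusted p were 0.122, 0.113, 0.0867 and 0.0913 in the order above. Without the libraries high in bone genes Fkbp14 was at -0.62 (adjusted p = 0.0961), Tll1 at -1.70 (adjusted p = 0.109), Loxl2 at -0.92 (adjusted p = 0.109) and Lair1 at 1.35 (adjusted p = 0.0552), and without those high in muscle genes Tll1 was at -1.57 (adjusted p = 0.0575).

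Markers of cell types that make collagen were summed in each tumor. The 9 fibroblast genes summed to 1029 to 4061 CPM with a median of 2225 in primary tumors and to 817 to 1859 CPM with a median of 1451 in transplants, with 4 lower and 2 higher in transplants (19.1% and 15.7% of all genes). Their part in the lower collagen chains was not tested. The 7 endothelial genes (175 to 831 CPM with a median of 382, against 277 to 534 CPM with a median of 386) had 1 lower, the 7 pericyte and smooth muscle genes (126.02 to 4686 CPM with a median of 675, against 108.98 to 3585 CPM with a median of 923) had 2 lower and 1 higher, and the 6 Schwann cell genes (18.9 to 125.3 CPM with a median of 31.8, against 19.9 to 67.9 CPM with a median of 36.9) had 1 lower. Leukocyte genes (534 to 2334 CPM with a median of 867, against 443 to 2139 CPM with a median of 1187) had 2 of 6 higher in transplants, and 4 of 6 were higher at 20 Gy in each model, where 16.8% of all genes were higher in primary tumors and 5.85% in transplants.

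The 9 skeletal muscle genes, which mark the muscle around the tumor, summed to 14.2 to 74024 CPM with a median of 1598 in primary tumors and 75.1 to 19096 CPM with a median of 5189.8 in transplants, with a median log2 fold change of 0.44 between models. Of 6 bone genes (24.1 to 87.1 CPM with a median of 43.2, against 27.8 to 835 CPM with a median of 52.3) 3 were higher in transplants. These values include the 4 transplants picked out above for high bone genes, and the list was not counted without them. Of 6 tested cartilage genes (19.3 to 172 CPM with a median of 96.5, against 21.7 to 104.5 CPM with a median of 50.5) 1 was higher and 1 lower, with Cnmd at a median under 0.05 CPM in both models. Tendon genes (8.55 to 311 CPM with a median of 38.1, against 13.2 to 378 CPM with a median of 65.6) had a median log2 fold change of -0.54, and of 4 tested adipocyte genes (0.0227 to 39.3 CPM with a median of 1.16, against 0.0253 to 51.9 CPM with a median of 4.79) 1 was higher, with Retn under 0.05 CPM in the median. Of the skin genes, Krt5, Krt14, Krt15 and Dsg1a had medians under 0.05 CPM in both models, and the list summed to at most 15.1 CPM.

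A pair of single libraries of line 402230 was scaled together with the tumors and entered no comparison. The library labelled as the parental primary tumor held 2.86 CPM of the 6 leukocyte genes, 3.87 CPM of the 7 endothelial genes and 4.54 CPM of the 9 muscle genes, below every tumor (436.6 to 2332, 172 to 847 and 14.0 to 73967 CPM), and the library labelled as the cell line held 461, 462 and 226 CPM. The marker levels went against the labels, so both are called by their label alone, and neither has a replicate. In the library labelled as primary tumor and that labelled as cell line, in this order, Col1a1 was at 115.1 and 1566 CPM, Col1a2 at 653 and 1629 CPM and Col3a1 at 441 and 6099 CPM. Col15a1 was at 0 and 136.2 CPM, Col18a1 at 18.5 and 163 CPM, Col12a1 at 15.8 and 166 CPM and Col5a3 at 1.72 and 70.9 CPM. These chains were lower in the library that lacked host markers. Col8a1 went the other way, at 201 and 28.7 CPM, and Col4a5 was at 29.0 and 29.8 CPM and Col4a6 at 3.89 and 2.30 CPM. Unirradiated transplants stood at 24.2 to 93.9 CPM of Col8a1, 4.06 to 13.4 CPM of Col4a5 and 26.8 to 72.3 CPM of Col15a1 on the same scale (n = 8).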

How the data were processed

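Polyadenylated RNA of whole tumors was sequenced from stranded KAPA libraries. Trimming (Trimmomatic 0.36), alignment to mm10 (STAR) and counting per GENCODE M17 gene (HTSeq) were done by the authors. The deposited values were raw counts. The strand setting of the counting is not given in the sources used here. Of 37469 identifiers, 37408 matched a GENCODE M21 symbol. No column belonged to another series.

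Counts were filtered by group (filterByExpr), scaled by TMM and tested with edgeR 4.0.16 (quasi-likelihood, robust, 1 mean per group, 48 libraries) in R 4.3.3, two-sided, with Benjamini-Hochberg adjustment over 19327 genes. DESeq2 1.42.0 and limma 3.58.1 (voom) were alternatives. Log2 CPM for plots and correlations used a prior count of 2. Correlations were tested with 100000 shuffles within groups. Levels per kb used the exon union. The test was tried on simulated counts: at a log2 change of 2 it recovered 92% of changed genes in the comparison of models over 4 treatments, 91% for the dose effect in primaries and 79% for that in transplants, and at a log2 change of 1 71%, 52% and 52%. The changed genes were drawn from all genes, whose spread was smaller than that of the chains, so recovery of collagen chains was not measured. Over 136 pairs of a group no library repeated another (lowest chi-square per degree of freedom 85.6).

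Chains were all named, the 12 highest per kb and those called between models with an absolute log2 fold change of at least 2 by library. Up to 3 genes each way were named from each partner list, and a gene this rule names is not reported here. Members, lists and rules were chosen with earlier results of these data known. The leaving out of libraries high in bone or muscle genes (above 30 and 20000 CPM) was added after seeing the data.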

Additional observations from a re-analysis of the deposited data

Results flagged for a closer look

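In 23 of 344 combinations of a chain and a group, 1 library stood apart from the others of its group by Dixon's test of the gap to the nearest value, and chance gives about 1 in 20 such combinations. Values are log2 CPM.

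Cartilage chains stood out high in transplant replicate 3, with Col10a1 at 1.84 in transplant 0 Gy isotype replicate 3, Col2a1 at 5.49 in transplant 0 Gy isotype replicate 3, Col11a2 at 4.74 in transplant 0 Gy anti-PD-1 replicate 3 and Col11a2 at 6.78 in transplant 20 Gy isotype replicate 3. These libraries are among the 4 that are high in bone genes. Also high was Col1a2 at 11.28 in transplant 0 Gy isotype replicate 3, which is among the same 4 libraries. Other transplants that were high were Col24a1 at 3.04 in transplant 20 Gy anti-PD-1 replicate 4, Col6a1 at 9.96 in transplant 0 Gy isotype replicate 1 and Col17a1 at 0.91 in transplant 20 Gy anti-PD-1 replicate 2. Low transplants were Col20a1 at 0.44 in transplant 0 Gy isotype replicate 2, Col16a1 at 6.80 in transplant 20 Gy isotype replicate 1, Col6a5 at 1.23 in transplant 20 Gy isotype replicate 3, Col6a1 at 7.59 in transplant 20 Gy isotype replicate 1 and Col18a1 at 7.36 in transplant 20 Gy isotype replicate 1. Replicate 1 of the 20 Gy isotype transplants was low in 3 chains.

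High primary tumors were Col9a1 at -2.45 in primary 20 Gy anti-PD-1 replicate 4, Col19a1 at -0.42 in primary 0 Gy anti-PD-1 replicate 3, Col9a3 at 2.31 in primary 20 Gy anti-PD-1 replicate 8, Col25a1 at 1.65 in primary 20 Gy isotype replicate 2, Col6a5 at 3.26 in primary 0 Gy anti-PD-1 replicate 2, Col1a1 at 13.38 in primary 20 Gy isotype replicate 2 and Col14a1 at 7.01 in primary 20 Gy isotype replicate 2. The irradiated anti-PD-1 replicates 4 and 8 are among the 3 libraries high in muscle genes. Low primary tumors were Col20a1 at -0.88 in primary 0 Gy anti-PD-1 replicate 6, Col8a2 at 2.15 in primary 20 Gy isotype replicate 3 and Col4a6 at -3.76 in primary 0 Gy anti-PD-1 replicate 6.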

How the results depend on the processing

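RLE scaling changed no count of called chains by more than 1.5 times. Of 63 called chain results, all 63 kept direction and call under RLE, 60 under DESeq2, 48 under limma voom, 47 without the count filter, 60 with the muscle covariate and 56 without the libraries high in muscle genes. Of 35 that could be fitted on their own groups 19 did so, and of 59 without the libraries high in bone genes 34. Of 55 called results of the partner genes that the naming rule chose, 55 kept theirs under DESeq2 and 45 without the count filter. Ratios of Col1a1 to Col1a2 turned in primary tumors with the length used, as given above. Shares of fibrillar, basement membrane and beaded filament chains moved by less than their SD with another or no length. The shares of the other families, the fibril-associated one among them, were not checked in this way. The r of trimer pairs under RLE or no scaling kept direction and side of the threshold.

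Of the chains called between models, DESeq2 gave 13 after 20 Gy with anti-PD-1. Limma voom gave 4 after 0 Gy with anti-PD-1 and 3 after 20 Gy with isotype. Without the count filter 3 were called after 0 Gy with isotype and 3 after 20 Gy with isotype. In fits of the compared groups alone 3 were called after 20 Gy with isotype and 0 after 20 Gy with anti-PD-1, where 17 had an unadjusted p under 0.05 and edgeR over 8 groups called 8. Without the libraries high in bone genes the counts were 3 after 0 Gy with isotype, 1 after 0 Gy with anti-PD-1, 1 after 20 Gy with isotype and 0 after 20 Gy with anti-PD-1, the 0 with 12 at an unadjusted p under 0.05, and Col11a2 turned to -0.70 after 20 Gy with isotype, also without replicate 3 of that group alone, and to -0.014 over 4 treatments. Leaving out single transplants, Col11a2 after 20 Gy with isotype ranged from -0.70 to 3.28.

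For radiation in primary tumors, no filter gave 1 with isotype and 0 with anti-PD-1 (9 at an unadjusted p under 0.05). With anti-PD-1, DESeq2 gave 5, own groups 0 (10 at an unadjusted p under 0.05), the muscle covariate 2 and the set without libraries high in muscle genes 0 (9). For radiation in transplants, own groups gave 2 with isotype and DESeq2 gave 1 with anti-PD-1. Over both antibodies limma voom, no filter and the set without libraries high in bone genes gave 0 (4, 7 and 2 at an unadjusted p under 0.05) and own groups 3. For anti-PD-1 in primary tumors at 20 Gy DESeq2 gave 1. The causes were not tested.

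Leaving out single transplants gave 2 to 3 called chains after 0 Gy with isotype, 1 to 6 after 0 Gy with anti-PD-1, 2 to 3 after 20 Gy with isotype, 0 to 14 after 20 Gy with anti-PD-1 and 22 to 26 over 4 treatments. For radiation in transplants the counts were 0 to 1 with isotype, 0 to 0 with anti-PD-1 and 0 to 2 over both. No paired analysis was possible because replicate numbers were given in accession order and the labels pair no libraries. Col4a6, Col9a1 and Col25a1 were at 0 CPM in some transplants, so their values rest on few reads.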
